A study of Mus musculus with 30 samples.

Results

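The 38 genes described here encode enzymes that burn fatty acids in mitochondria and peroxisomes, the carriers that bring the acids in, and 3 regulators of these organelles. They were chosen by gene symbol, and all 38 had a row among the 23986 gene symbols of the deposited table. By role, 6 activate fatty acids or release them again, 5 form the carnitine shuttle, 8 belong to the mitochondrial oxidation spiral, 3 pass its electrons on, 5 are auxiliary enzymes for double bonds, 8 are peroxisomal enzymes, and 3 are regulators.

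Fatty acids are first joined to coenzyme A, then carried into mitochondria on carnitine, and shortened there in a spiral of dehydrogenation, hydration, dehydrogenation and thiolysis. Peroxisomes shorten very long and branched acids, make hydrogen peroxide in doing so, and hand shorter products to mitochondria. The proximal tubule of the adult kidney draws most of its energy from this pathway, and Ppara, a nuclear receptor for fatty acids, is known to switch on many of its genes.

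The series holds 30 Affymetrix Mouse Gene 2.0 ST arrays of RNA, 3 for each of 10 groups. Cultured groups came from the mouse embryonic stem cell (ESC) line 1B10, which was kept on mitomycin C-treated mouse embryonic fibroblast feeders, so that the cultured samples all represent a single line. Mesoderm was induced with Bmp4, activin A and Fgf2, intermediate mesoderm with a ROCK inhibitor, retinoic acid and activin A, and renal progenitors with Bmp7 and Fgf2, after a priming step in Fgf2 and activin A. Progenitors were aggregated on a filter, exposed briefly to CHIR99021 and Bmp7, and then grown in serum medium to 8D, 14D and 21D organoids. The tissue groups were kidneys of E12.5 and E13.5 embryos and of adults. Neither labels nor methods state their strain, their sex, the age of the adults or whether whole kidneys were taken. The labels do not say whether replicates were separate cultures or animals, so p-values measure the spread between arrays, which may be technical. The labels also give a batch: replicate 1 of ESCs, mesoderm, intermediate mesoderm, progenitors and E13.5 kidneys was batch 1, and the other 25 arrays were batch 2.

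Values are log2 array signals, so a difference of 1 is a doubling. A signal of 5.17 served as the limit of dim genes, which is the 95th percentile of the signals of 1399 olfactory and vomeronasal receptor genes, a family with little expression outside sensory tissue. Array medians lay between 5.76 and 5.94. In these bulk samples fewer cells of a type and less RNA per cell cannot be told apart.

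Marker lists were measured beside the members. The list of 14 proximal tubule markers averaged 11.16 to 11.44 per array in adult kidneys, with 0 of 14 genes below the dim limit, against 4.94 to 5.12 in embryonic kidneys, where 5 of 14 were below it on all 6 arrays. In 21D organoids this list averaged 5.19 to 5.31, with 8 of 14 genes below the dim limit on all arrays. Its member Slc34a1, the phosphate transporter of that segment, averaged 5.02 there. The endocytic receptor genes Lrp2 and Cubn averaged 7.07 and 6.62 in 21D organoids. They averaged 5.87 and 4.60 in E12.5 kidneys and 5.92 and 4.70 in E13.5 kidneys. Both were higher than in 21D organoids already in mesoderm, at 9.01 and 8.10, and in intermediate mesoderm, at 9.28 and 9.14. The 6 genes of loop and distal tubule averaged 10.10 to 10.40 in adult kidneys, against 5.54 to 5.71 in embryonic kidneys. Lower in adult kidneys were the 5 nephron progenitor genes, at 6.25 to 6.66 against 9.81 to 10.14 in embryonic kidneys, and the 6 fibroblast genes, at 5.55 to 6.14 against 8.36 to 8.92. Some arrays departed from their labels. ESC replicate 2 and ESC replicate 3 carried mesoderm genes, with T at 7.41 and 8.96 against 5.61 in ESC replicate 1, and Mixl1 at 9.88 in ESC replicate 3, above all 3 mesoderm arrays. The progenitor arrays carried unequal amounts of 6 pluripotency genes, at a mean of 7.89, 6.76 and 5.54 in replicates 1, 2 and 3. The nephron progenitor list averaged 7.90 to 8.26 in progenitors, against 7.24 to 7.73 in ESCs. Of its genes Osr1 and Eya1 averaged 10.49 and 9.97 in progenitors, against 7.83 and 6.92 in ESCs, and Six2 averaged 5.25 in progenitors, against 5.96 in ESCs. The 7 hepatocyte and yolk sac genes averaged 7.44 to 8.60 in 21D organoids, and Alb and Afp reached 10.78 and 9.93 there. In adult kidneys the same list averaged 5.92 to 7.52, and the 9 adipocyte genes averaged 5.30 to 5.58.

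Promoter windows of 3 members are shown, those of Acot4 and Acox2 as the members with a repeated receptor-type motif, and that of Hadha because most of it is also the window of Hadhb, the gene of its partner subunit. No link between these letters and a level was tested. Windows run from 250 bases before to 50 bases after the RefSeq start (GRCm38.p6), 5′ to 3′ along the gene. Of the 38 members, 34 had a window, and Crat, Acaa2, Decr1 and Hsd17b4 had none. In Acot4 and Acox2, capitals mark a direct repeat found on either strand, GGNCA and AGGNCA with 1 free base between them, which resembles sites of Ppara and its partner receptors. In Hadha, capitals mark the 228 bases that also lie in the Hadhb window on the opposite strand, between the start sites and upstream of both.
Acot4 (chr12:84038129-84038428, plus strand): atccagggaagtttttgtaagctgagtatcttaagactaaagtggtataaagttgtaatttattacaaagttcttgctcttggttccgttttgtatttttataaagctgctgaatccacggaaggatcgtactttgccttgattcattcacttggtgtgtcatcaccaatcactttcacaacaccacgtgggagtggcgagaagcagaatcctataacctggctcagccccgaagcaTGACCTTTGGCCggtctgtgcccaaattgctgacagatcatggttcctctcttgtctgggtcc
Acox2 (chr14:8258970-8259269, minus strand): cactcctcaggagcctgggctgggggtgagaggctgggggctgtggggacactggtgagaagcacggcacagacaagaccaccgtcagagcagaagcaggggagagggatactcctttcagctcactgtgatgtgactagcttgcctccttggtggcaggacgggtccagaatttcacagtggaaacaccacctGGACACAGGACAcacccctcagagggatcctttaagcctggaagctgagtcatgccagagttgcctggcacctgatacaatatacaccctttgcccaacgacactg
Hadha (chr5:30154931-30155230, minus strand): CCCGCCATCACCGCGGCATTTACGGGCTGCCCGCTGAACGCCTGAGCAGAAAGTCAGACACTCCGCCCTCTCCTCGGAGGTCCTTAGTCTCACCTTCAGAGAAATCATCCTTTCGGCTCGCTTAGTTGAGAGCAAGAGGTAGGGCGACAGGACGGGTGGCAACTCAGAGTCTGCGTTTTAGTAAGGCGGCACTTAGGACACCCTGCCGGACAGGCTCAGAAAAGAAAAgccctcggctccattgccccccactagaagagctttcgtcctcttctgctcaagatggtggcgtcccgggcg

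The repeat was found in 2 of 34 members with a window (5.88%), against 0.932% of all 27025 genes with one. In Acot4 it lay 13 to 2 bases before the start, and in Acox2 56 to 45 bases before it, and a further Acox2 window held the same match. A single AGGTCA on either strand, which is part of some such repeats, was found in 8 of 34 members (23.5%) and in 18.1% of all genes with a window. The members with it were Acadm, Acadvl, Acot3, Acot4, Acsm1, Cat, Cpt1a and Phyh. A match of letters is a description and not a binding site.

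Across the 10 groups, adult kidneys stood above the other 9 for most members. By group mean, 37 of 38 members were highest in adult kidneys, and for 34 of 38 the lowest adult array was above each of the other 27 arrays. How many of all genes did the same was not counted. The exceptions were Slc25a20, Hadha, Eci2 and Acaa1a. Over the 9 groups other than adult kidneys, the group means of a member spanned a median of 0.69 log2 units, between 0.27 for Acaa1a and 2.71 for Ppargc1a. The span exceeded 1 for 6 members, which were Ppargc1a, Cpt1a, Phyh, Pecr, Cat and Acadm. Among those 9 groups the highest mean was found in ESCs for 10 members, in progenitors for 8 and in E13.5 kidneys for 7, but in 8D organoids for 0. Per array, the mean over the 38 members was 9.68 to 9.76 in adult kidneys, against 6.96 to 7.39 on the other arrays. Acsm1, Acsm2, Acot4 and Acox2 were below the dim limit on all arrays of all 9 groups, so these members had a measurable level in adult kidneys alone.

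**Figure D1:**
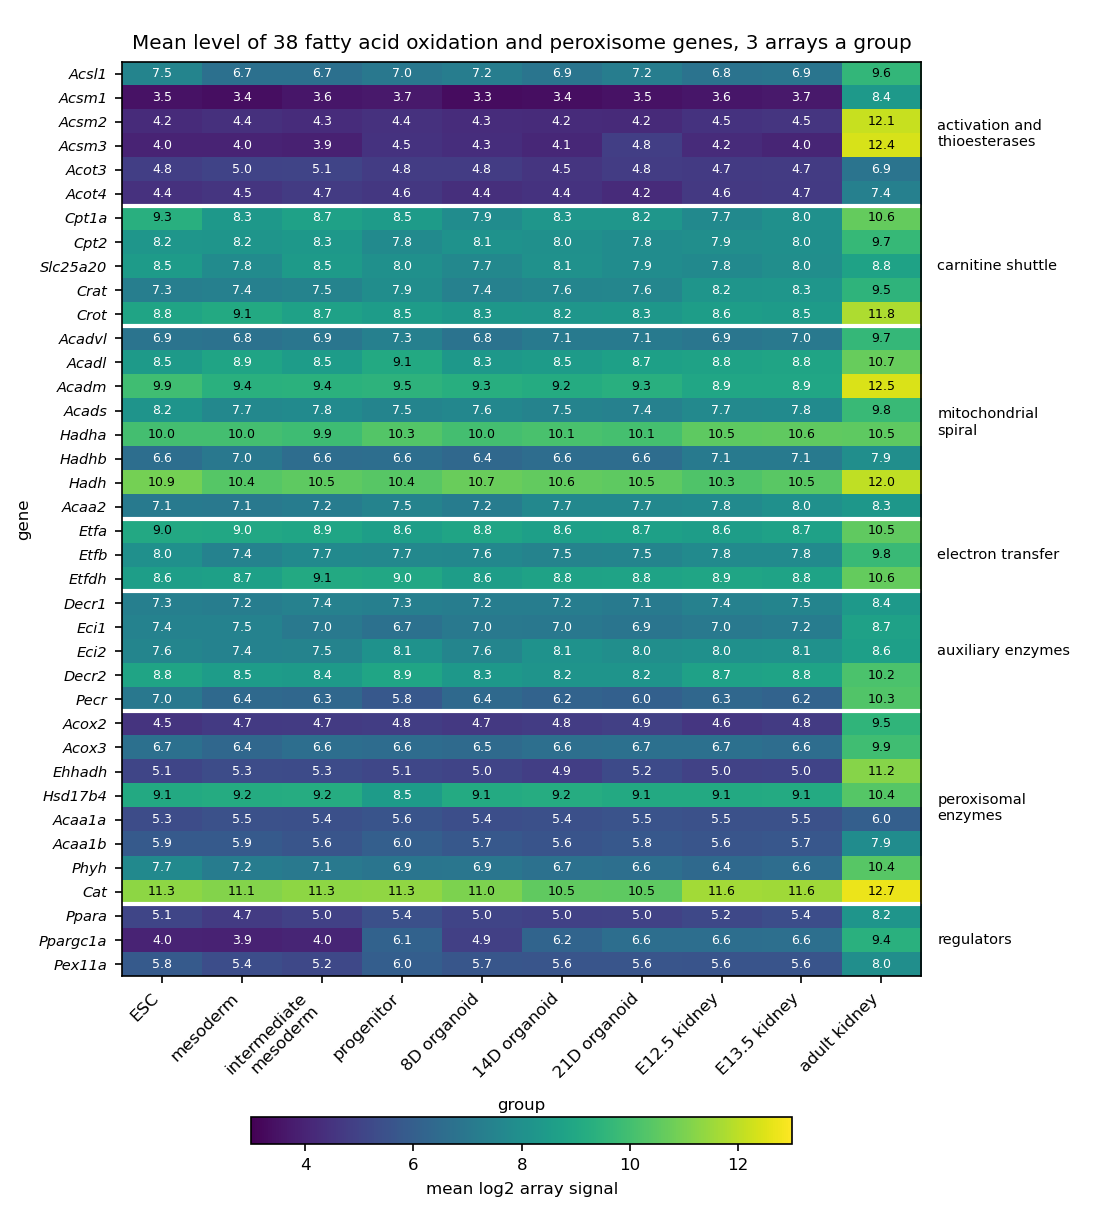
Mean log2 array signal of each member (rows, by role) in each group (columns, in the order of culture and development, 3 arrays per group). The adult kidney column is the brightest for 37 of 38 members, and Hadha, at 10.54 in adult kidneys, is level with its 10.56 in E13.5 kidneys.

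The first comparison was of adult kidneys with embryonic kidneys, pooled over the 6 arrays of E12.5 and E13.5. In adult kidneys 37 of 38 members were higher and 0 were lower at an adjusted p under 0.05 (limma, Benjamini-Hochberg over all genes), where 24.3% of all genes tested were higher. The median difference of the members was 2.09 log2 units, against 0.08 over all genes. E12.5 and E13.5 kidneys differed in 0 members, and in 0 genes of all tested (percent called 0), with 465 genes at an unadjusted p under 0.05.

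All 6 genes of activation and thioesterases were higher in adult kidneys, by 2.13 to 8.25 log2 units. Acsm3, a medium-chain acyl-CoA synthetase, had 12.43, 12.40 and 12.38 in adult kidneys, against a lowest, median and highest of 3.91, 4.12 and 4.48 in embryonic kidneys. Its adult arrays were nearly equal and its embryonic arrays were all below the dim limit, so it was at least 151-fold higher in adult kidneys (fitted difference 8.25 ± 0.24 SE, adjusted p = 2.03e-19). Acsm2, of the same family, had 12.18, 12.06 and 12.19 in adult kidneys, against 4.40, 4.51 and 4.59 as lowest, median and highest in embryonic kidneys, or at least 126-fold higher. Acsm1 stood at 8.36, 7.76 and 9.02 in adult kidneys, against 3.47, 3.62 and 3.81 in embryonic kidneys, at least 9.27-fold higher, with a wide spread among the adult arrays (SD 0.63). Acsm1 and Acsm2 are next to each other in the annotation, with 0 protein-coding genes between them. Acsl1, the long-chain synthetase, was 6.80-fold higher, at 9.64 ± 0.29 in adult kidneys (SD, n = 3) and 6.85 ± 0.11 in embryonic kidneys (n = 6). The neighbouring thioesterase genes Acot3 and Acot4, which release fatty acids from coenzyme A in peroxisomes, averaged 6.86 and 7.35 in adult kidneys and were below the limit in embryonic kidneys, so that they were at least 3.23-fold and 4.55-fold higher. Acsm and Acot genes have close relatives, and how probes divide signal among them was not tested.

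All 5 genes of the carnitine shuttle were higher in adult kidneys. Crot, which moves medium-chain acids from peroxisomes onto carnitine, had 11.87, 11.67 and 11.74 in adult kidneys, against a lowest, median and highest of 8.30, 8.54 and 8.64 in embryonic kidneys (difference 3.21 ± 0.12, adjusted p = 4.57e-17). Cpt1a, the outer-membrane enzyme that sets the rate of entry, had 10.69, 10.84 and 10.33 in adult kidneys, against 7.55, 7.94 and 8.07 in embryonic kidneys, or 6.57-fold higher. Cpt2, its inner-membrane counterpart, was 3.29-fold higher and Crat, which buffers acetyl groups on carnitine, 2.42-fold higher. Slc25a20, the carrier between these steps, differed least (1.92-fold), at 8.81, 8.51 and 9.0 in adult kidneys against 7.74, 7.79 and 8.04 in embryonic kidneys. Its groups did not overlap, but one ESC array, at 9.18, was above all 3 adult arrays.

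In the mitochondrial spiral 7 of 8 genes were higher in adult kidneys. Acadm, the medium-chain acyl-CoA dehydrogenase, had 12.52, 12.31 and 12.53 in adult kidneys, against 8.78, 8.90 and 9.05 as lowest, median and highest in embryonic kidneys, or 11.6-fold (3.54 ± 0.14, adjusted p = 8.52e-17). Acadvl, for very long chains, was 6.29-fold higher, Acads, for short chains, 4.15-fold, and Acadl, for long chains, 3.57-fold. Of these 4 dehydrogenases, which share a fold and differ in the chain length they prefer, the one for medium chains differed most. Hadh, the short-chain hydroxyacyl-CoA dehydrogenase, was 3.25-fold higher, at 12.05, 12 and 12.04 in adult kidneys, against 10.20, 10.32 and 10.54 in embryonic kidneys. Acaa2, the mitochondrial thiolase, was 1.31-fold higher (0.39 ± 0.15, adjusted p = 0.0298), a call that was lost when E12.5 replicate 2, E13.5 replicate 2, E13.5 replicate 3, adult replicate 1 or adult replicate 3 was left out, with adjusted p between 0.0553 and 0.127.

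Hadha and Hadhb encode the alpha and beta subunits of the trifunctional protein, which works as 1 complex on long chains. Hadha had 10.43, 10.86 and 10.32 in adult kidneys, against 10.41, 10.56 and 10.65 as lowest, median and highest in embryonic kidneys, and the adult range spanned the embryonic one (0.01 ± 0.14, adjusted p = 0.966). Hadhb had 7.92, 7.89 and 7.99 in adult kidneys, against 6.99, 7.04 and 7.26 in embryonic kidneys, with no overlap (0.82 ± 0.18, adjusted p = 0.000425). These genes are read in opposite directions from either side of the shared bases printed above. The difference between their differences was not tested.

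All 3 electron transfer genes were higher in adult kidneys. Etfb and Etfa, the subunits of the electron transfer flavoprotein, were 3.91-fold and 3.71-fold higher in adult kidneys, and Etfdh, which passes the electrons to ubiquinone, was 3.36-fold higher. Etfb had 9.55, 9.83 and 9.91 in adult kidneys, against 7.64, 7.75 and 7.98 as lowest, median and highest in embryonic kidneys. All 5 auxiliary enzymes were higher. Pecr, the peroxisomal enoyl-CoA reductase, had 10.19, 10.48 and 10.21 in adult kidneys, against 6.14, 6.19 and 6.47 in embryonic kidneys, or 16.2-fold (4.02 ± 0.13, adjusted p = 4.26e-18). The isomerases Eci1 and Eci2 and the dienoyl-CoA reductases Decr1 and Decr2, were 1.51-fold to 3.06-fold higher. Eci2 had the smallest difference of the class, at 8.68, 8.43 and 8.83 in adult kidneys, against 7.90, 8.03 and 8.16 in embryonic kidneys.

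All 8 peroxisomal enzymes were higher in adult kidneys, by 0.55 to 6.20 log2 units. Ehhadh, the bifunctional enzyme of the classic peroxisomal pathway, had 11.17, 11.19 and 11.23 in adult kidneys, against 4.50, 5.08 and 5.38 as lowest, median and highest in embryonic kidneys (6.20 ± 0.20, adjusted p = 2.4e-18). Since 4 of the 6 embryonic arrays were below the dim limit, it was at least 63.7-fold higher in adult kidneys, with those arrays set to the limit. Hsd17b4, the other bifunctional enzyme, which handles branched chains, was 2.38-fold higher, at 10.50, 10.55 and 10.07 in adult kidneys, against 8.96, 9.12 and 9.16 in embryonic kidneys. Both bifunctional enzymes were thus higher in adult kidneys without overlap, by very different amounts. Acox2, an oxidase for branched chains, had 9.21, 9.84 and 9.55 in adult kidneys and was below the dim limit on all embryonic arrays, at least 20.6-fold. Acox3, a further branched-chain oxidase, was 9.77-fold higher, and Phyh, which starts alpha-oxidation of phytanic acid, 14.7-fold. Cat, the catalase that removes peroxide, averaged 12.69 ± 0.10 in adult kidneys (SD, n = 3) and 11.60 ± 0.14 in embryonic kidneys (n = 6), or 2.12-fold higher.

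The peroxisomal thiolases Acaa1a and Acaa1b are near copies. Acaa1b had 8.06, 7.56 and 7.97 in adult kidneys, against 5.36, 5.71 and 5.96 as lowest, median and highest in embryonic kidneys (4.61-fold). Acaa1a had 6.09, 6.20 and 5.75 in adult kidneys, against 5.31, 5.48 and 5.59 in embryonic kidneys (1.46-fold, adjusted p = 0.0051). A probe can take signal from both, so the split between them is uncertain.

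**Figure D2:**
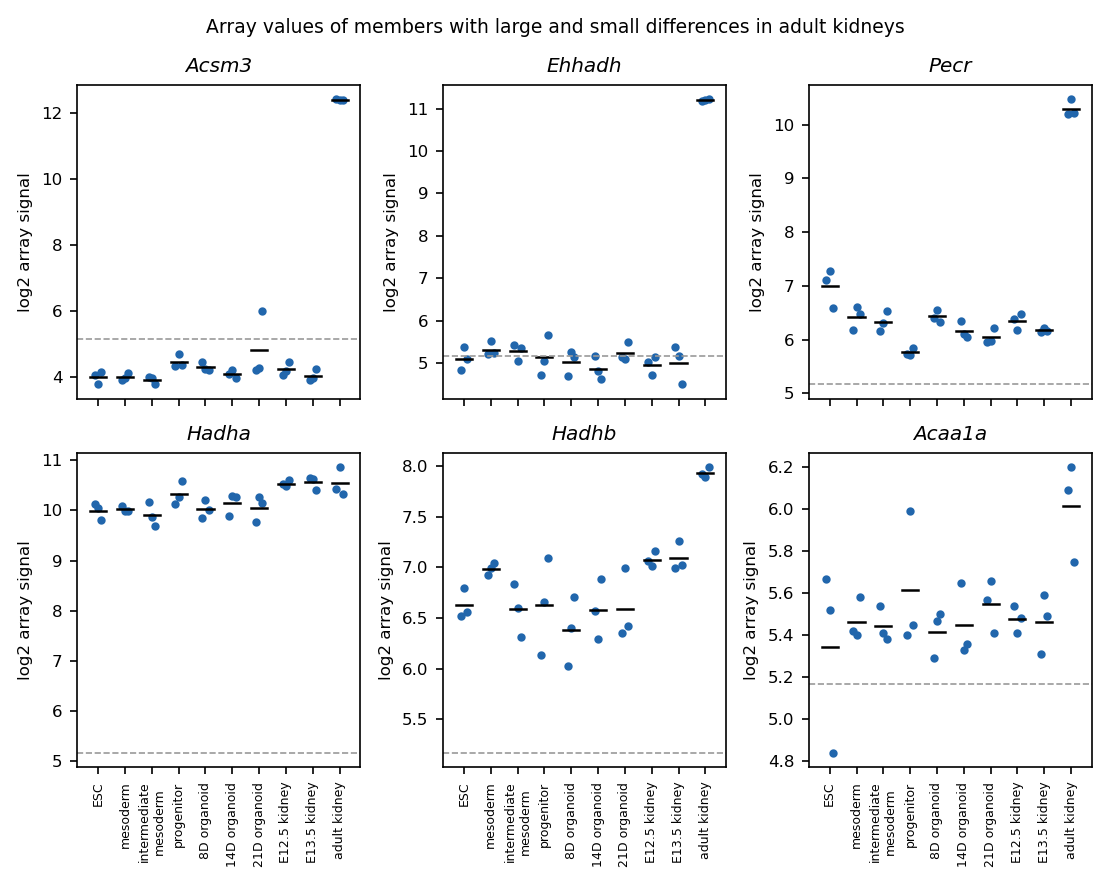
Log2 array signal of 6 members on each array (points) with the group mean (bar), in the order of culture and development, and the dim limit of 5.17 (dashed). Outside adult kidneys Acsm3 lies below the dim limit apart from 1 array of 21D organoids at 6.0, Ehhadh reaches at most 5.67, and the Hadha arrays of adult and embryonic kidneys overlap.

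All 3 regulators were higher in adult kidneys. Ppara had 8.35, 8.57 and 7.74 in adult kidneys, against 5.13, 5.21 and 5.47 as lowest, median and highest in embryonic kidneys, where 2 of 6 arrays were below the dim limit (at least 7.7-fold, 2.97 ± 0.18, adjusted p = 6.63e-13). Ppargc1a, a coactivator of mitochondrial and oxidative genes, had 9.44, 9.49 and 9.13 in adult kidneys, against 6.25, 6.71 and 6.92 in embryonic kidneys (6.58-fold). Pex11a, which takes part in peroxisome division, had 7.91, 8.01 and 7.95 in adult kidneys, against 5.37, 5.62 and 5.72 in embryonic kidneys (4.96-fold). The tubule, nephron progenitor and fibroblast lists moved with all of these results, as given above, and their part in them was not tested.

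Organoids were then set against adult kidneys. At 8D, 38 of 38 members were lower in organoids, where 22.1% of all genes were lower. At 14D it was 37 of 38, against 24.5% of all genes, and at 21D 38 of 38, against 24% of all genes. The median differences were -2.14, -2.28 and -2.21 log2 units at 8D, 14D and 21D, beside -0.04, -0.09 and -0.07 over all genes. The 3 comparisons share the adult arrays. The proximal tubule list averaged 11.16 to 11.44 in adult kidneys. In organoids it averaged 5.02 to 5.29 at 8D, 5.15 to 5.19 at 14D and 5.19 to 5.31 at 21D. The fibroblast list averaged 5.55 to 6.14 in adult kidneys. It averaged 8.10 to 10.08, 9.84 to 10.53 and 9.79 to 10.52 in organoids at the same ages. The part of these lists in the differences was not tested. Hadha had the smallest difference at 8D and 14D, at -0.52 and -0.39, and was the member that missed the threshold at 14D (adjusted p = 0.0521). Its calls at 8D and 21D were lost after quantile normalization (adjusted p = 0.152 at 8D and 0.374 at 21D), without adult replicate 2 (0.101 and 0.134), at 8D without 8D replicate 1 (0.0629) and at 21D without 21D replicate 1 (0.128). Ehhadh had 5.14, 5.09 and 5.49 in 21D organoids, against 11.17, 11.19 and 11.23 in adult kidneys, and Ppara had 5.21, 4.84 and 4.91 in 21D organoids, against 8.35, 8.57 and 7.74 in adult kidneys. For both, 2 of 3 organoid arrays were below the dim limit, so that they were at least 60.7-fold and 8.21-fold lower in the organoids. Crot was 11-fold lower, Acadm 8.86-fold lower and Pecr 19.0-fold lower in 21D organoids than in adult kidneys. The call of Acaa1a was lost at 21D without 21D replicate 1 (adjusted p = 0.0621), 21D replicate 3 (0.116), adult replicate 1 (0.0923) or adult replicate 2 (0.134), and at 14D without adult replicate 2 (0.0559). At 14D, Eci2 was not called without 14D replicate 1 (0.0943) or adult replicate 3 (0.0789), nor Slc25a20 without adult replicate 3 (0.0591).

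Fewer members differed between 21D organoids and embryonic kidneys. In 21D organoids 2 members were higher than in embryonic kidneys and 8 were lower, where 12.1% of all genes were higher and 16.2% lower. The median difference was -0.09 log2 units, beside -0.03 over all genes. Cat differed most, with 10.79, 9.87 and 10.84 in 21D organoids, against 11.38, 11.61 and 11.79 as lowest, median and highest in embryonic kidneys, or 2.15-fold lower (-1.10 ± 0.25, adjusted p = 0.0015). The groups did not overlap, and without 21D replicate 2 the difference was -0.79 (adjusted p = 0.0309). Crat was 1.58-fold lower and Decr2 1.5-fold lower, and both subunits of the trifunctional protein were lower, Hadha by 1.39-fold and Hadhb by 1.43-fold. Decr1 and Acads were 1.28-fold and 1.27-fold lower. Acsm2 was lower as well, but it was below the dim limit in both groups and has no fold.

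Acadm was 1.31-fold higher in 21D organoids, at 9.35, 9.53 and 9.04, against 8.78, 8.90 and 9.05 as lowest, median and highest in embryonic kidneys, with an overlap at the lowest organoid array. Of the 10 calls, 7 were lost in at least 1 refit. Those of Acadm and Acads were each lost in 8 refits, with adjusted p up to 0.225 without 21D replicate 2 for Acadm and up to 0.106 without 21D replicate 1 for Acads. Hadhb was not called without 21D replicate 1 (adjusted p = 0.181), 21D replicate 3 (0.148), E12.5 replicate 3 (0.0587) or E13.5 replicate 2 (0.0686), and Hadha and Decr1 were not called without 21D replicate 1 (0.152 and 0.0714). Acsm2 was not called without 21D replicate 1 or 21D replicate 3 (0.0859 and 0.103). Acsm3 had 4.23, 4.30 and 6.0 in 21D organoids, against 3.91, 4.12 and 4.48 in embryonic kidneys, so its higher mean came from 1 array. Without that array, replicate 3, the difference was 0.11 in place of 0.69 (adjusted p = 0.627). The same array had the highest mean over the hepatocyte and yolk sac genes, 8.60, a list whose part in the Acsm3 value was not tested. The count of called members was 4 without 21D replicate 1 and 6 without 21D replicate 3. Of all genes 5470 and 5760 were called in those refits, against 2910 higher and 3880 lower with all arrays. Ppargc1a had 6.86, 6.50 and 6.52 in 21D organoids, against 6.25, 6.71 and 6.92 in embryonic kidneys (-0.01 ± 0.23, adjusted p = 0.987). Ppara had 5.21, 4.84 and 4.91 in 21D organoids, against 5.13, 5.21 and 5.47 in embryonic kidneys (-0.26 ± 0.18, adjusted p = 0.331).

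**Figure D3:**
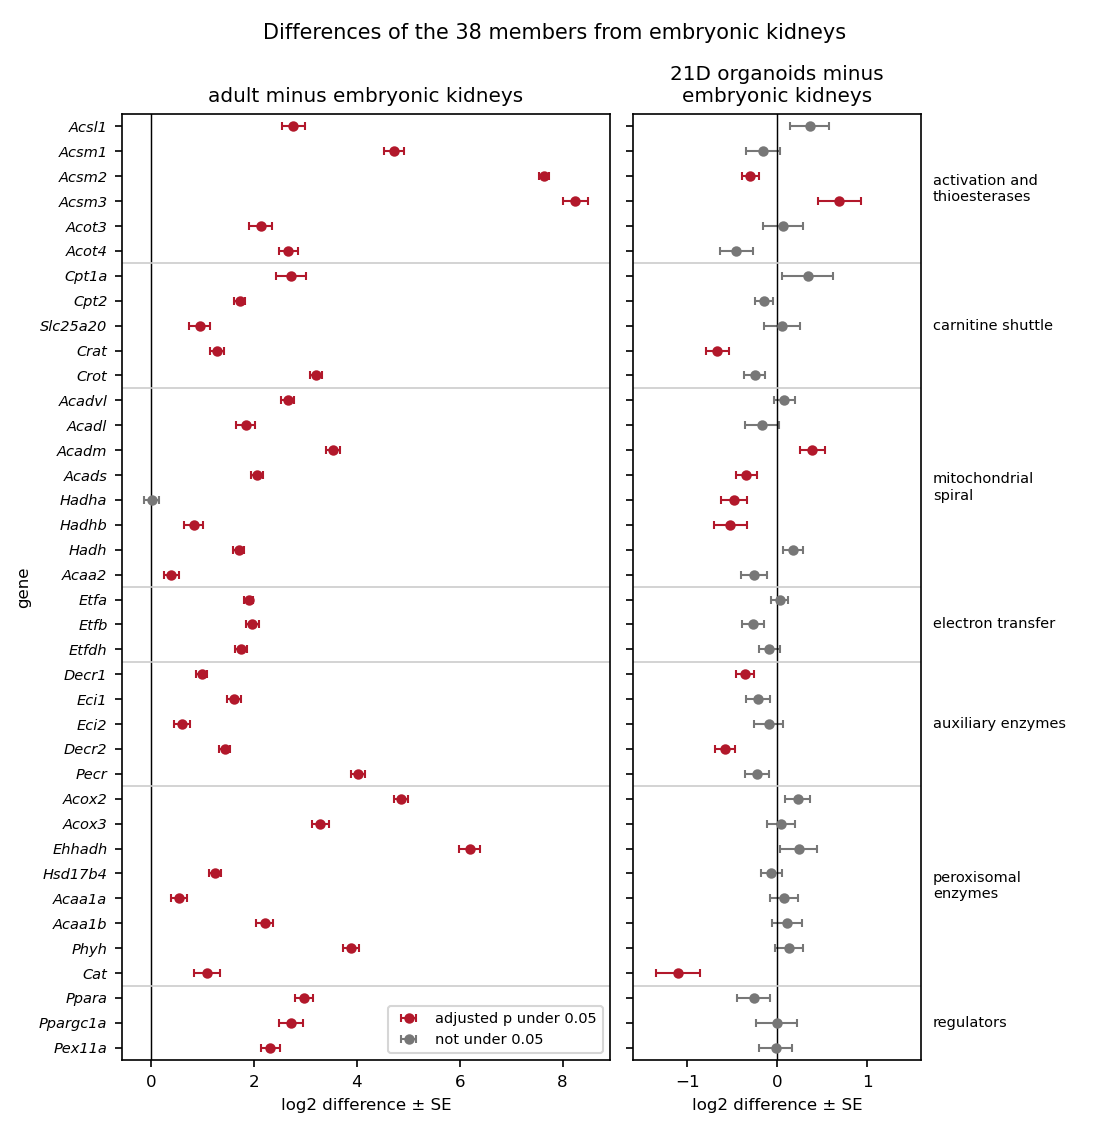
Fitted log2 difference with its standard error for each member, for adult kidneys (left) and 21D organoids (right) against the same 6 embryonic kidney arrays, on axes of different range. In adult kidneys 37 of 38 points pass the threshold to the right of 0, and in 21D organoids 2 pass to the right and 8 to the left.

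Along the culture, differences were smaller. In mesoderm 7 of 38 members were lower than in ESCs and 0 were higher, where 5.8% of all genes were lower and 5.86% higher. They were Acsl1, Acadm, Acads, Hadh, Etfb, Pecr and Phyh. Hadh had 10.32, 10.34 and 10.44 in mesoderm, against 11.20, 10.94 and 10.59 in ESCs (-0.54 ± 0.13, adjusted p = 0.00609). Etfb had 7.4, 7.48 and 7.45 in mesoderm, against 8.12, 8.01 and 7.95 in ESCs (-0.58 ± 0.14, adjusted p = 0.00803). Acsl1 had 6.54, 6.78 and 6.73 in mesoderm, against 7.84, 7.50 and 7.15 in ESCs (-0.81 ± 0.25, adjusted p = 0.0346). For Hadh, Etfb, Acsl1, Acadm and Acads the highest ESC value was in replicate 1 and the lowest in replicate 3. Those were the ESC arrays with the lowest and the highest mesoderm markers. Pecr and Phyh were not highest in replicate 1. Replicate 1 was also the only ESC array of batch 1, and its feeder and fibroblast mean was the lowest (7.45, against 8.15 and 8.24). These features of the array cannot be told apart. Cpt1a went further than the 7 by its mean, at 8.21, 8.34 and 8.49 in mesoderm against 10.03, 9.05 and 8.90 in ESCs, but its difference of -0.98 did not pass the test (adjusted p = 0.0526).

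These calls depended on single arrays, and each of the 7 was lost in 2 to 6 refits. Within batch 2 alone 1 of the 7 remained, which was Phyh, itself lost without mesoderm replicate 2 or 3 or ESC replicate 2 or 3 (adjusted p = 0.186, 0.158, 0.264 and 0.112), and within batch 1, which has 1 array of each group, 6 of the 7 were lower in mesoderm and Phyh differed by 0.03. Leaving out ESC replicate 1, 2 or 3 gave 1, 2 or 8 called members, and leaving out mesoderm replicate 1 or 2 gave 2 or 4. Fewer of all genes were called in most of these refits too. With all arrays 1406 were higher and 1392 lower, and in batch 2 alone 1263 were called in either direction. The number was 1621 and 1918 without ESC replicate 1 or 2, and 1623 and 1762 without mesoderm replicate 1 or 2. The 6 feeder and fibroblast genes averaged 5.95 to 6.40 in mesoderm and 7.45 to 8.24 in ESCs, and their part in these differences was not tested. Intermediate mesoderm differed from mesoderm in 0 members, where 7.05% of all genes were called in either direction (limma) and 4629 genes had an unadjusted p under 0.05. Without mesoderm replicate 1, or after quantile normalization, 1 member was called, and 1353 and 1721 of all genes were, against 1691 with all arrays.

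Renal progenitors differed from intermediate mesoderm in 10 members, 6 higher and 4 lower, where 10.7% of all genes were higher and 15.9% lower. Ppargc1a had 6.09, 5.41 and 6.93 in progenitors, against 4.26, 3.85 and 3.97 in intermediate mesoderm. All 3 intermediate mesoderm arrays were below the dim limit, so the difference was at least 1.97-fold (fitted 2.12 ± 0.26, adjusted p = 2.11e-06). Pex11a had 5.34, 5.85 and 6.83 in progenitors, against 4.92, 5.18 and 5.45 in intermediate mesoderm, with overlap, and with the 1 array below the dim limit set to it the fold was at least 1.67. Crat, Acadvl, Eci2 and Decr2 were 1.35-fold to 1.53-fold higher. Hsd17b4 was 1.59-fold lower, at 8.29, 8.34 and 8.89 in progenitors, against 9.05, 9.29 and 9.19 in intermediate mesoderm. Cpt2 was 1.47-fold lower, Pecr 1.48-fold lower and Etfa 1.22-fold lower. All 10 had the same sign within each batch. They were called on these same arrays, and batch 1 has 1 array of either group, so the signs are no separate check. Of the 10 calls, 7 were lost in at least 1 refit. That of Etfa was lost in 7 refits, with adjusted p = 0.19 in batch 2 alone, 0.0513 with the replicate block and 0.326 after quantile normalization. Without progenitor replicate 3, Crat (difference 0.25, adjusted p = 0.195), Acadvl (0.31, 0.118), Eci2 (0.46, 0.0881), Decr2 (0.36, 0.0695) and Pex11a (0.44, 0.053) were not called. Without intermediate mesoderm replicate 3 the count was 4, and Pecr was among those lost (adjusted p = 0.0551). Of all genes 4838 were called in that refit, against 2560 higher and 3805 lower with all arrays.

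Over the whole monolayer protocol members went in both directions. In progenitors 6 members were higher than in ESCs and 11 were lower, where 14.8% of all genes were higher and 19.6% lower. The median difference was 0.03 over the 38 members and 0.03 over all genes. The higher members were Ppargc1a, Crat, Acadl, Eci2, Acadvl and Etfdh. Ppargc1a was at least 1.97-fold higher, since its ESC arrays were below the dim limit, and the other members 1.3-fold to 1.56-fold. The lower members were Pecr, Phyh, Cpt1a, Eci1, Acads, Hsd17b4, Hadh, Cpt2, Acadm, Etfa and Etfb, by 1.29-fold to 2.33-fold. Among the acyl-CoA dehydrogenases, Acadvl and Acadl were in the higher group and Acadm and Acads in the lower. Of these 4 calls only that of Acads held in every refit. Acadm was lost in 5 refits (adjusted p = 0.157 in batch 2 alone, 0.074 after quantile normalization, 0.158 without progenitor replicate 2, 0.145 without ESC replicate 1 and 0.113 without ESC replicate 2), Acadl in 3 (0.145 without progenitor replicate 3, 0.103 without ESC replicate 2 and 0.0951 without ESC replicate 3) and Acadvl without progenitor replicate 3 (0.0526). Acadvl had 6.98, 7.42 and 7.65 in progenitors, against 6.89, 6.93 and 6.74 in ESCs, and Acads had 7.42, 7.66 and 7.4 in progenitors, against 8.48, 8.21 and 7.79 in ESCs, with no overlap in either gene. Pecr had 5.74, 5.72 and 5.85 in progenitors, against 7.11, 7.27 and 6.58 in ESCs, 2.33-fold lower (-1.22 ± 0.15, adjusted p = 1.75e-06).

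Cpt1a had 7.56, 8.54 and 9.32 in progenitors, against 10.03, 9.05 and 8.90 in ESCs. Those ranges overlapped, and the call (adjusted p = 0.046) was lost within batch 2 alone, where the difference was -0.05, and without progenitor replicate 1 (adjusted p = 0.465), progenitor replicate 2 (0.0871) or ESC replicate 1 (0.445). Etfb was lost in 8 refits, with a difference of -0.20 in batch 2 alone (adjusted p = 0.446) and -0.22 without progenitor replicate 1 (0.308), against -0.37 on all arrays (0.053 with the replicate block). Etfdh was lost in 4 refits and Eci2 in 3, with adjusted p up to 0.137 and 0.139, both without progenitor replicate 3. All 17 called members had the same sign within each batch. They were called on these same arrays, and batch 1 has 1 array of either group, so the signs are no separate check. Cpt1a counted among them at -2.47 in batch 1 and -0.05 in batch 2. In progenitors the 6 fibroblast genes averaged 9.57 to 10.15 and the 9 adipocyte genes 5.29 to 6.59, against 7.45 to 8.24 and 4.67 to 4.99 in ESCs. Progenitor replicate 3 had the highest adipocyte mean and the lowest pluripotency mean, and it was also the highest of the 3 for Cpt1a, Acadvl, Ppargc1a and Pex11a. The part of these lists in the differences was not tested.

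Progenitors differed from embryonic kidneys in 7 members, 3 higher and 4 lower, where 14.2% of all genes were higher and 20% lower. Acadm, Phyh and Acadvl were 1.47-fold, 1.34-fold and 1.32-fold higher, and Hsd17b4, Pecr, Acaa2 and Eci1 were 1.33-fold to 1.48-fold lower. Of the 7 calls, 5 were lost in at least 1 refit. Phyh was lost in 7 refits, among them the fit with no batch term (adjusted p = 0.0554), and without progenitor replicate 3 its difference was 0.26 (0.255). Without that array the difference of Acadvl was 0.27 (0.118). Within batch 2 alone Acaa2 and Eci1 were not called (0.355 and 0.233), nor without progenitor replicate 1 (0.278 and 0.159), and Pecr was not called without progenitor replicate 2 (0.054).

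In 8D organoids 2 members were higher than in progenitors and 7 were lower, where 11.7% of all genes were higher and 7.69% lower. The lower members were Ppargc1a, Acadl, Acadvl, Eci2, Decr2, Crat and Etfdh, and the higher ones were Pecr and Hsd17b4. This comparison and the 3 before it share the progenitor arrays, which had the widest spread of the 10 groups over the members (median SD 0.25). Hsd17b4 had 9.10, 9.18 and 9.06 in 8D organoids, against 8.29, 8.34 and 8.89 in progenitors, and Pecr had 6.41, 6.56 and 6.33 in 8D organoids, against 5.74, 5.72 and 5.85 in progenitors, with no overlap in either. Of the 9 calls, 5 were lost in at least 1 refit. Without progenitor replicate 3, Crat (difference -0.27, adjusted p = 0.216), Eci2 (-0.42, 0.168), Etfdh (-0.37, 0.0972) and Acadl (-0.63, 0.0809) were not called. Without 8D replicate 1 Eci2 (0.19), without 8D replicate 2 Eci2, Etfdh and Acadl (0.0742, 0.0772 and 0.0697), without 8D replicate 3 Crat (0.0666), and without progenitor replicate 2 Etfdh and Hsd17b4 (0.0541 and 0.0568) were not called. The replicate block also ended the call of Eci2 (0.0596). The count was 6 to 12 with single arrays left out. The pluripotency list averaged 7.35 to 8.46 in 8D organoids, against 5.54 to 7.89 in progenitors. The fibroblast and adipocyte lists averaged 8.10 to 10.08 and 5.26 to 6.08 in 8D organoids, against 9.57 to 10.15 and 5.29 to 6.59 in progenitors. The part of these lists in the differences was not tested.

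Ppargc1a was the one member called between 8D and later organoids with all arrays in the fit. It had 4.64, 5.29 and 4.76 at 8D, 6.20, 6.40 and 6.03 at 14D, and 6.86, 6.50 and 6.52 at 21D. At 14D it was 1.31 ± 0.26 above 8D (adjusted p = 0.00876), where 1.63% of all genes were higher, and at 21D it was 1.73 ± 0.26 above 8D (adjusted p = 0.000159), where 5.95% were higher. The 8D arrays overlapped with none at 14D or 21D. Of the 8D arrays 2 of 3 were below the dim limit, and with these set to it the folds were at least 2.0 and 2.67. The hepatocyte and yolk sac list averaged 5.50 to 6.33 at 8D, 5.45 to 7.36 at 14D and 7.44 to 8.60 at 21D, the striated muscle list 5.63 to 5.97, 5.74 to 6.90 and 5.90 to 7.86, and the pluripotency list 7.35 to 8.46, 6.76 to 8.03 and 6.60 to 7.66 at the same ages. The part of these lists in the Ppargc1a values was not tested. Without 8D replicate 1 the 14D call was lost (adjusted p = 0.0972) and 0 members were called, and without 8D replicate 3, 2 were called. Of all genes 53 and 596 were called in these refits in either direction, against 390 higher with all arrays. At 21D against 8D the count of members was 2 without 8D replicate 2, 8D replicate 3 or 21D replicate 1. Of all genes 2578, 2443 and 2124 were then called in either direction, against 1427 higher with all arrays. Against progenitors, 8D organoids were at least 1.91-fold lower for Ppargc1a (-1.25 ± 0.27, adjusted p = 0.0016), and without progenitor replicate 3, the highest array, the difference was -0.79 (adjusted p = 0.0213). Ordered by mean, Ppargc1a ran through mesoderm, ESCs and intermediate mesoderm (3.94 to 4.03, with overlapping arrays), 8D organoids (4.90), progenitors (6.14), 14D organoids (6.21), E12.5 kidneys (6.62), 21D organoids (6.63), E13.5 kidneys (6.65) and adult kidneys (9.35). Neighbours in this order overlapped from progenitors to 14D organoids and from E12.5 kidneys through 21D organoids to E13.5 kidneys, while 8D organoids, 14D organoids and adult kidneys each lay apart from one or both neighbours. Ppara, in contrast, had group means between 4.73 and 5.44 in all 9 groups other than adult kidneys.

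**Figure D4:**
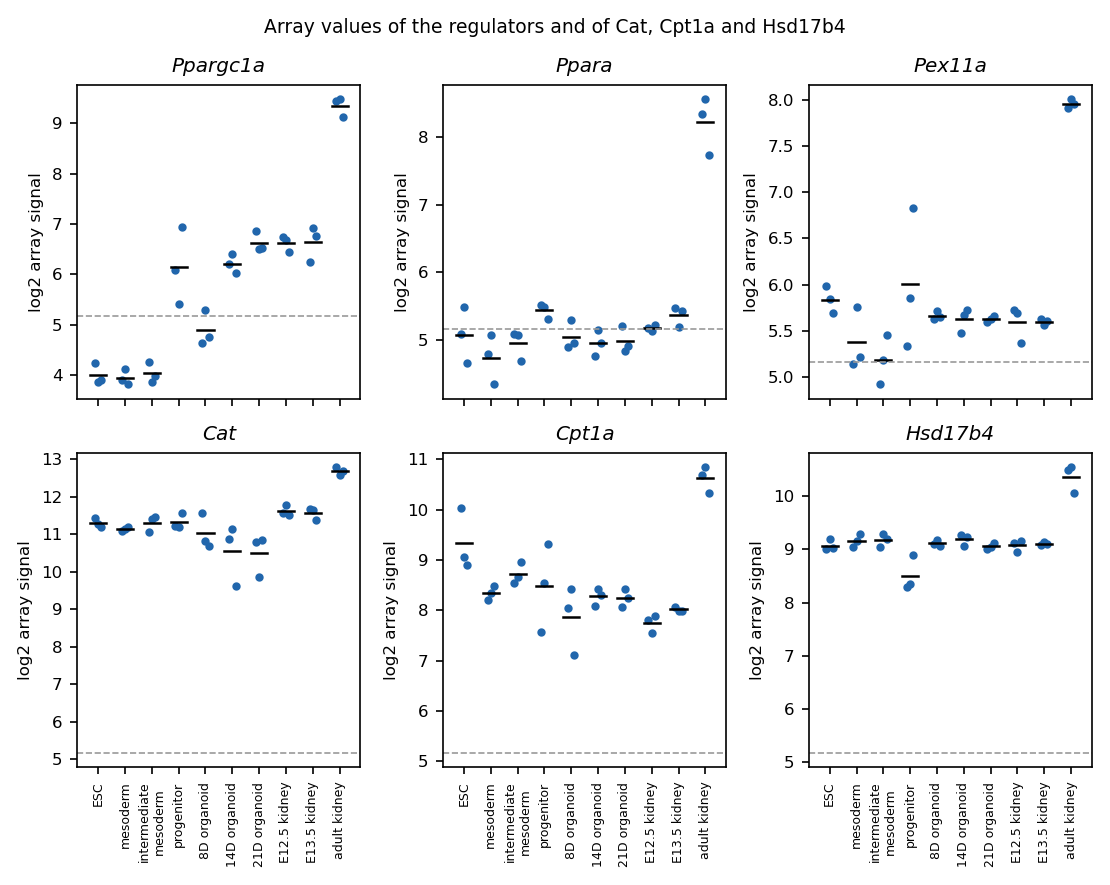
Log2 array signal of 6 members on each array (points) with the group mean (bar), in the order of culture and development, and the dim limit of 5.17 (dashed). Ppargc1a lies below the limit in ESCs, mesoderm and intermediate mesoderm and is higher at 14D and 21D than at 8D, and Cat is lowest at 14D and 21D, at 10.55 and 10.50.

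**Figure D5:**
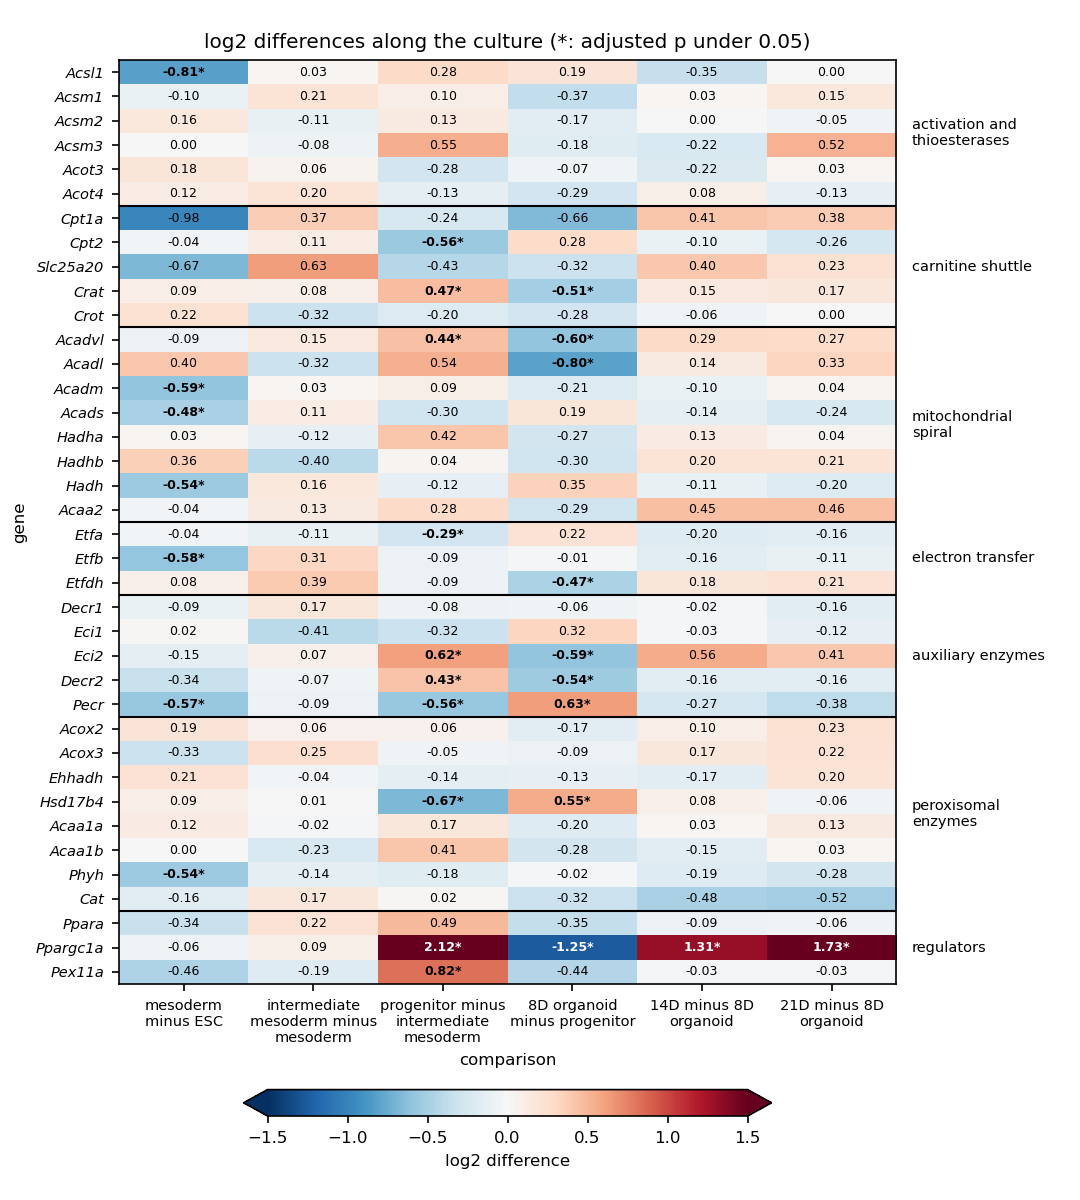
Fitted log2 difference of each member (rows, by role) in 6 comparisons along the culture (columns), with an asterisk at an adjusted p under 0.05 and colours that saturate at 1.5. The 0 asterisks of intermediate mesoderm against mesoderm stand between 7 for mesoderm against ESCs and 10 for progenitors against intermediate mesoderm.

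Genes of the pathway outside the 38 were counted by list in adult against embryonic kidneys, where the share of all genes called higher was 24.3% and lower 25.4%. Of 12 further genes of mitochondrial oxidation, 9 were higher in adult kidneys and 1, Cpt1c, was lower. Slc22a5, the carnitine importer, averaged 9.47 ± 0.21 in adult kidneys and 6.08 ± 0.08 in embryonic kidneys (SD, n = 3 and 6), or 10.4-fold higher, and Acad10, Acad11 and Acot13 were 8.93-fold, 8.15-fold and 5.85-fold higher. Of 23 further peroxisomal enzymes and transporters, 20 were higher and 1, Abcd2, a transporter of very long chains, was lower, at 4.12 ± 0.27 in adult kidneys and 7.35 ± 0.10 in embryonic kidneys. Hao2 and Dao, oxidases of hydroxy acids and D-amino acids, were at least 42.4-fold and 51.7-fold higher. Pipox, which oxidises pipecolate, and Ephx2, an epoxide hydrolase, were 84.8-fold and at least 51.5-fold higher than in embryonic kidneys, but ESCs also carried them, at 9.83 and 8.94.

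Of 17 genes of peroxisome assembly 14 were higher in adult kidneys and 0 were lower, with a median of 0.66 log2 units. The largest differences were those of the membrane proteins Pxmp2 and Pxmp4, at 6.74-fold and 5.12-fold, and of the import receptor Pex7, at 4.58-fold. Pex7 carries Phyh, among others, into the organelle. Of 9 genes for ketone bodies and propionyl-CoA, 8 were higher and 0 lower, led by Bdh1, the hydroxybutyrate dehydrogenase, at least 12.3-fold.

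Of 10 genes for uptake and activation 3 were higher in adult kidneys and 0 lower. Slc27a2, a transporter and very long-chain synthetase, was at least 178-fold higher, Acsm5, a relative of the Acsm members, at least 16.6-fold and Cd36, a fatty acid translocase, 40.6-fold. Cultured groups also carried 2 of these genes, Slc27a2 at 7.69 in ESCs and 7.10 in mesoderm, and Cd36 at 8.78 in progenitors. Of 8 receptors, coactivators and other transcription factors 5 were higher and 2 were lower. Hnf4a, a receptor of proximal tubule and liver, led the higher ones at 22.2-fold, and the factor Nrf1 was 2.40-fold lower. Of 9 genes known as Ppara targets outside oxidation 7 were higher, with Cyp4a12a at least 125-fold, Cyp4a31 at least 42.1-fold and Vnn1 at least 16.5-fold, and 1, the lipid droplet gene Plin2, was lower. The 10 genes of fatty acid synthesis were divided, with 4 higher and 5 lower. Elovl6, the elongase, was 6.56-fold lower and Acaca, the acetyl-CoA carboxylase, 2.41-fold lower in adult kidneys, while Me1, which supplies NADPH, was 26.6-fold higher.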

How the data were processed

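RNA of 30 samples was hybridised to Affymetrix Mouse Gene 2.0 ST arrays. Normalization by the authors was RMA, run in R with the oligo and limma packages, and the deposited values are log2 signals, 1 per gene symbol and array. Neither labels nor methods state versions, the probe annotation, how several probe sets of a gene were merged, or whether batches were corrected. RMA makes arrays alike overall (array medians 5.76 to 5.94), so differences are relative to the other genes. Members, gene lists and tests were chosen with earlier results of these data known.

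Groups and batches came from the labels. A linear model with 10 group terms and a batch term was fitted to all 23986 genes with limma 3.58.1 (R 4.3.3), with 19 residual degrees of freedom, and p-values were adjusted by Benjamini-Hochberg over all genes. A gene was called at an adjusted p under 0.05. For embryonic kidneys, the E12.5 and E13.5 terms were averaged. Fitted differences, and folds from them, differ slightly from differences of plain means because of the batch term. Where all arrays of a group were below 5.17, a fold is a bound, from the mean of the other group to that limit, and where only some were, those arrays were set to it. The number of arrays limits the precision. The fit was tested on simulated data.

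Values on every array are given for up to 3 members of each role with the widest range of group means, and for those that went against their role. From each other list up to 4 called genes with the largest differences are named. Abcd2, Cpt1c and Plin2 were added after their values were seen, and some genes of these lists are not reported here. Promoter sequences are from RefSeq (GRCm38.p6). By symbol, 38 of 38 members matched a RefSeq gene and 34 had a promoter window. Alternatives were batch 2 alone, no batch term, the replicate number as a block, a filter on dim genes, quantile normalization, a trended and robust prior, and each array left out in turn. Python 3.11.15, numpy 2.4.6, pandas 2.3.3 and matplotlib 3.10.9 were used for summaries and figures.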

Additional observations from a re-analysis of the deposited data

Results flagged for a closer look

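On the 6 embryonic kidney arrays, 2 of the 38 members had an array that stood far from the others by Dixon's test, both in E12.5 replicate 2. Acadvl, the very long-chain dehydrogenase, was at 6.80 there, while the other 5 arrays lay between 6.97 and 7.05. Decr2, the peroxisomal dienoyl-CoA reductase, was at 8.56 there, while the others lay between 8.76 and 8.84. Chance gives such an array in about 1 of 20 groups, or 1.9 of 38 members.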

How the results depend on the processing

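Of 212 member calls over the 14 comparisons, refitted 2706 times in all under the alternatives and without single arrays, 2543 refits kept the call, 163 lost it and 0 turned its direction. The lost calls belonged to 46 of the 212, unevenly. Adult against embryonic kidneys lost 1 of 37. Against adult kidneys, 8D, 14D and 21D organoids lost 1 of 38, 3 of 37 and 2 of 38. Mesoderm against ESCs lost 7 of 7. Progenitors lost 7 of 10 against intermediate mesoderm, 7 of 17 against ESCs and 5 of 7 against embryonic kidneys. For 21D organoids against embryonic kidneys it was 7 of 10. For 8D organoids it was 5 of 9 against progenitors, and for 14D against 8D organoids 1 of 1.

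The number of members called moved by more than 1.5 times in 6 of 14 comparisons. For mesoderm against ESCs it was 1 in batch 2 alone, in place of 7. After quantile normalization it was 1 for intermediate mesoderm against mesoderm, in place of 0, and 2 for 21D against 8D organoids, in place of 1. With single arrays left out, the count was 1 to 8 for mesoderm against ESCs, 0 to 1 for intermediate mesoderm against mesoderm, 4 to 12 for progenitors against intermediate mesoderm, 0 to 2 for 14D against 8D organoids, 1 to 2 for 21D against 8D organoids and 4 to 10 for 21D organoids against embryonic kidneys. It was 36 to 37 for adult against embryonic kidneys, 37 to 38 for 8D organoids and 36 to 38 for 14D and for 21D organoids against adult kidneys. The count over all genes moved as well, as given above for several of these refits. The cause of these moves was not tested.

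By the median, same-numbered arrays deviated together no more than others (r 0.009 and -0.006), with single pairs up to r 0.524 and 0.511. A median over all pairs, native kidneys among them, cannot decide whether the numbers pair some of the cultures. With the replicate number as a block, the count was 37 for adult against embryonic kidneys, 38 for 8D, 14D and 21D organoids against adult kidneys, 9 for 21D organoids against embryonic kidneys, 7 for progenitors against embryonic kidneys, 6 for mesoderm against ESCs, 0 for intermediate mesoderm against mesoderm, 10 for progenitors against intermediate mesoderm, 15 for progenitors against ESCs, 8 for 8D organoids against progenitors, 1 for 14D and 1 for 21D against 8D organoids, and 0 for E13.5 against E12.5 kidneys.

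Members near the dim limit of 5.17 have only bounds there, and 3 arrays a group leave small differences undecided.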
